A study of Atriplex lentiformis with 8 samples.

Results

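In leaves of quailbush (Atriplex lentiformis), a C4 shrub that tolerates salt, 182 of 46492 assembled transcripts were abundant and had no listed match to an Arabidopsis protein. They were chosen by a blank match field and by the larger of their FPKM values at 43 °C and 23 °C, which had to be at least 50. FPKM is a fragment count scaled to transcript length and sequencing depth, so it can be compared between transcripts of different length. The 182 transcripts made up 1.12% of the 16289 transcripts without a match and 8.54% of the 2131 transcripts that reached 50 FPKM. Because these values chose them, their levels and temperature ratios are given as a description.

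The hot group, with days of 43 °C and nights of 30 °C, is labelled with an 18:3 lipid phenotype, and the cool group, with days of 23 °C and nights of 18 °C, with a 16:3 lipid phenotype. Each group had 4 libraries from leaves, which the design calls biological replicates. Both groups had 8 weeks as their age or treatment time, a 16-hour photoperiod and a light intensity of 120 microeinstein. Each temperature had its own growth chamber, so chamber and temperature cannot be told apart.

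A BLASTx search translates a transcript in every reading frame and compares the products with a set of known proteins. Atriplex belongs to the order Caryophyllales and Arabidopsis to Brassicales, lineages that separated early in the history of the eudicots. A transcript can lack a match when its protein is short or has changed quickly, when the assembled piece holds mostly untranslated sequence, when the RNA codes for no protein, or when it comes from another organism. Which of these applies to any of the 182 transcripts was not tested, and no function is given to them here.

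Every FPKM below is the authors' mean of a temperature group, without an SD, and depth per library is unknown. Values of single libraries were not analysed here, so it cannot be said whether the libraries of the groups overlapped. The log2 ratio is log2((FPKM at 43 °C + 1)/(FPKM at 23 °C + 1)), which understates the change of low values. The words rose and fell are kept for transcripts whose adjusted p was below 0.05 in the authors' deposited table. Multiplied by length, the FPKM values of all transcripts had a total of 909555 at 43 °C, against 1084419 at 23 °C, and making these totals equal would add 0.25 to a log2 ratio. Transcripts are named by their rank in larger FPKM, from rank 1, and by their length. As a check of the tissue, 7 of 7 marker loci of photosynthetic leaf cells had matched transcripts. Their sum was 16401 FPKM at 43 °C, against 31816 FPKM at 23 °C. These loci were listed for mesophyll, but in a C4 leaf they need not mark mesophyll alone. Of the marker loci for seed storage proteins 0 of 4 had a match, floral markers had a sum of 1.94 FPKM at 43 °C, against 4.035 FPKM at 23 °C, and guard cell markers 17.5 FPKM at 43 °C, against 22.3 FPKM at 23 °C. In leaf RNA, fewer cells of a type and less RNA per cell cannot be told apart.

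The most abundant of the 182 transcripts fell at 43 °C. Rank 1, of 972 bases, had 4847 FPKM at 43 °C and 14897 FPKM at 23 °C, where it was the most abundant of all 46492 transcripts. At 43 °C it was number 3 among all transcripts, and its log2 ratio was -1.62. Rank 2, of 976 bases, had 2874 FPKM at 43 °C and 6427 FPKM at 23 °C. Rank 6, of 991 bases, carries the same assembly locus name as rank 2 and had 1444 FPKM at 43 °C and 2682 FPKM at 23 °C. These 3 transcripts stayed above 1000 FPKM at both temperatures, and no other of the 182 did.

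The log2 ratios of the other 7 of the 10 most abundant transcripts lay between -3.35 and -1.41, and 6 of them were lower than that of rank 1. Rank 3 (959 bases) had 685 FPKM at 43 °C, against 4669 FPKM at 23 °C, and rank 4 (1186 bases) had 495 FPKM at 43 °C and 3654 FPKM at 23 °C. Rank 5 (540 bases) had 273 FPKM at 43 °C, against 2788 FPKM at 23 °C, the lowest log2 ratio of these 10 at -3.35. Their order of abundance therefore differed between the temperatures, as rank 8 (670 bases), with 699 FPKM at 43 °C and 1864 FPKM at 23 °C, stood above ranks 3, 4 and 5 at 43 °C. Rank 7 (554 bases) had 456 FPKM at 43 °C and 2031 FPKM at 23 °C. Rank 9 (721 bases) had 277 FPKM at 43 °C, against 1566 FPKM at 23 °C, and rank 10 (945 bases) had 199.5 FPKM at 43 °C and 1397 FPKM at 23 °C. All 10 passed as lower at 43 °C in the authors' deposited table, as 17.8% of all transcripts did; their 23 °C values chose them, so nothing is read from this.

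**Figure D1:**
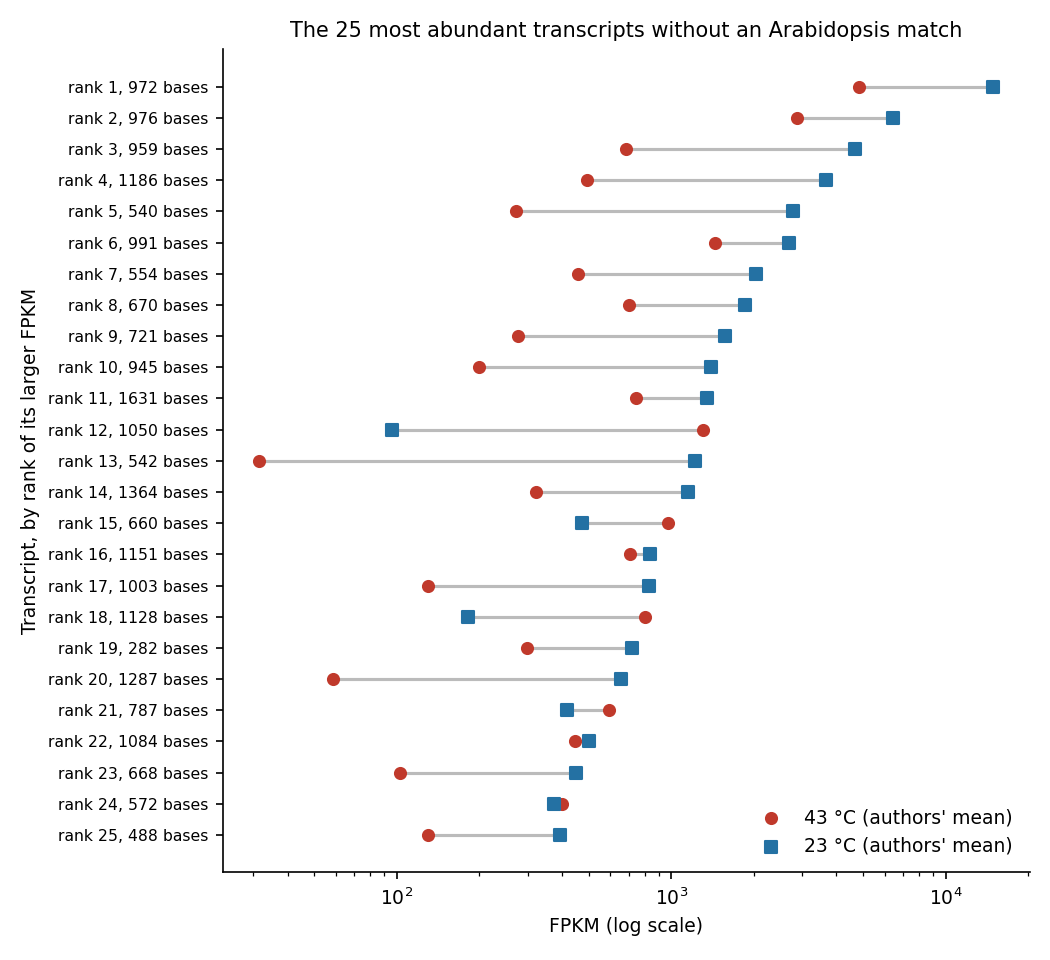
Authors' mean FPKM (log scale) at 43 °C (red circles) and 23 °C (blue squares) of the 25 most abundant transcripts without an Arabidopsis match, ordered by their larger value. In ranks 1 to 11 the 43 °C value lies left of the 23 °C value, and rank 12, at 1302 FPKM at 43 °C and 95.9 FPKM at 23 °C, is the first with the opposite order.

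The highest transcript that rose was rank 12, of 1050 bases, with 1302 FPKM at 43 °C and 95.9 FPKM at 23 °C (log2 ratio 3.75). It was followed by rank 15 (660 bases), with 975 FPKM at 43 °C, against 472 FPKM at 23 °C, and by rank 18 (1128 bases), with 801 FPKM at 43 °C, against 182 FPKM at 23 °C. Of the 14 transcripts that reached 1000 FPKM at either temperature, 1 rose and 13 fell, while 75 of the 182 rose in all. Among the 73 matched transcripts of that abundance 14 rose, 53 fell and 6 did not pass. Between 50 and 100 FPKM, 37 of 83 transcripts without a match rose and 37 fell (44.6% each). Of the 1098 matched transcripts between these limits, 296 rose (27.0%) and 586 fell (53.4%). Over all transcripts 20.7% were higher and 17.8% lower at 43 °C. The same values chose and grouped the transcripts, so nothing is read from these counts.

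Over all 182 transcripts, 75 rose (41.2%), 88 fell (48.4%) and 19 did not pass. Across all 46492 transcripts 38.5% passed, with 20.7% higher and 17.8% lower at 43 °C, but the choice by the larger FPKM used the same contrast, so nothing is read from this gap. Of the 1949 matched transcripts that reached 50 FPKM, 28.1% rose and 54.5% fell. The transcripts that rose had a median of 104 FPKM at 43 °C and 32.8 FPKM at 23 °C. Those that fell had a median of 50.2 FPKM at 43 °C and 110 FPKM at 23 °C. With equal totals 84 of the 88 kept a log2 ratio below 0 and the other 4 turned positive. At or above 50 FPKM at both temperatures were 86 transcripts, 52 reached it at 43 °C alone and 44 at 23 °C alone.

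The temperature ratios were widely spread. The log2 ratio ran from -5.70 to 7.32, with a median of -0.15 and quartiles of -1.002 and 1.08, and the median turned to 0.10 with equal totals. The matched transcripts that reached 50 FPKM had quartiles of -0.81 and 0.28. A rise of at least 2-fold in the authors' deposited table was listed for 52 of the 182 (28.6%, against 15.2% of all transcripts), and a fall of at least 2-fold for 47 (25.8%, against 10.6% of all transcripts). A rise of at least 8-fold was listed for 23 (12.6%, against 5.72% of all transcripts) and a fall of at least 8-fold for 11 (6.04%, against 3.13% of all transcripts) in the authors' deposited table.

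Because the transcripts without a match were shorter, the same shares were also set out by length. Up to 1000 bases, 68 of 117 transcripts without a match (58.1%) passed with at least a 2-fold change, beside 86 of 344 matched transcripts of at least 50 FPKM (25%). Above 1000 bases the counts were 31 of 65 (47.7%) and 467 of 1605 (29.1%). Matched transcripts whose E value was above 1e-30, a weaker resemblance to the Arabidopsis protein, had a share of 36.7% (79 of 215). The share was thus higher without a match in both length classes, and over all transcripts it was 25.7%. Above 1000 bases the gap lay mostly in the rises, 26.2% without a match and 8.22% matched, while falls were 21.5% and 20.9%. Up to 1000 bases rises were 29.9% and 10.8%, and falls 28.2% and 14.2%. The weaker matches had 12.1% rises and 24.7% falls. This is a description: the difference was not tested, and the same contrast chose the transcripts.

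**Figure D2:**
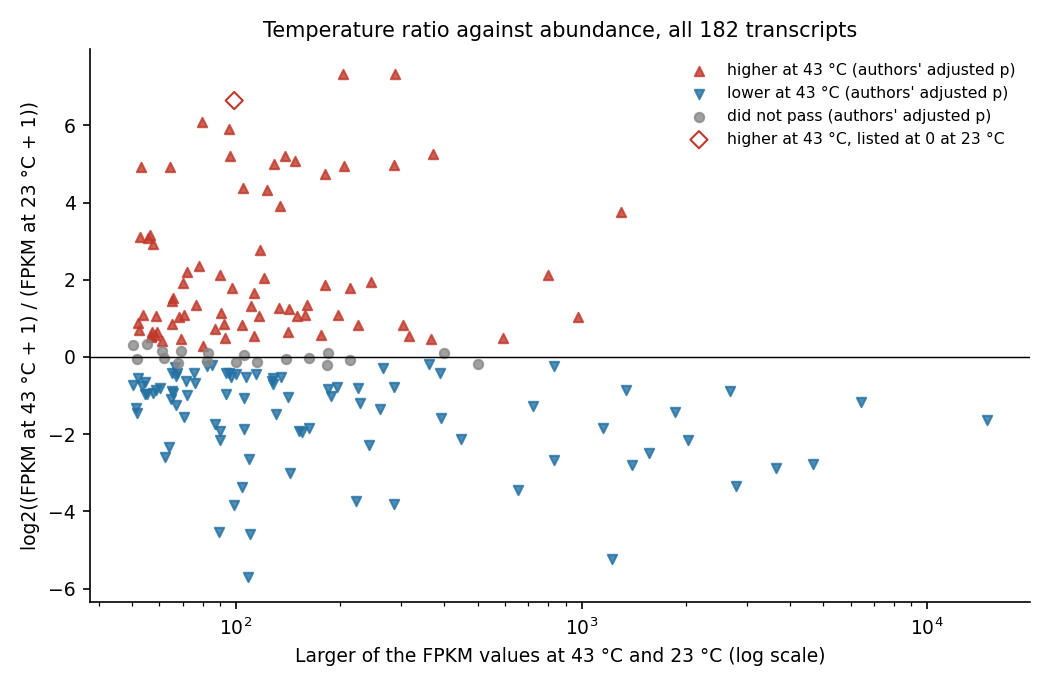
Log2 ratio of the 182 transcripts against the larger of their FPKM values (log scale), with triangles for transcripts that passed in the authors' deposited table, grey circles for the 19 that did not, and an open diamond for the transcript listed at 0 at 23 °C. The upper left holds the large rises, all under 1000 FPKM except rank 12 among ratios above 3, and the right side, beyond 1302 FPKM, holds lower values only.

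The largest rises began near 0 FPKM at 23 °C. The transcript comp55299_c0_seq1 (rank 47, 1306 bases) had 204 FPKM at 43 °C, against 0.2875 FPKM at 23 °C, a log2 ratio of 7.32. The transcript comp55309_c0_seq1 (rank 32, 1448 bases) had 288 FPKM at 43 °C, against 0.81 FPKM at 23 °C, also a log2 ratio of 7.32. The authors' deposited log2 values were 9.49 for rank 47 and 8.50 for rank 32, so the equal ratios rest on the added 1. Rank 101 (898 bases) had 98.8 FPKM at 43 °C and was listed at 0 at 23 °C, so no ratio is given. Of the 182 transcripts, 6 had less than 1 FPKM at 23 °C and 0 had less than 1 FPKM at 43 °C.

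The other 3 below 1 FPKM at 23 °C were ranks 123, 106 and 173. Rank 123 (1032 bases) had 79.8 FPKM at 43 °C, against 0.195 FPKM at 23 °C, and rank 106 (494 bases) had 95.4 FPKM at 43 °C and 0.61 FPKM at 23 °C. Rank 27 (778 bases) stood higher at both temperatures, with 371 FPKM at 43 °C, against 8.80 FPKM at 23 °C, a log2 ratio of 5.24. Rank 70 (776 bases) had 139 FPKM at 43 °C, against 2.80 FPKM at 23 °C, and rank 64 (848 bases) had 148 FPKM at 43 °C, against 3.39 FPKM at 23 °C. The last 3 had log2 ratios within 5.09 to 5.24.

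Ranks 75, 104 and 173 share the first part of their assembly names and all rose. Rank 75 (1275 bases) had 128 FPKM at 43 °C and 3.03 FPKM at 23 °C, rank 104 (440 bases) had 96.0 FPKM at 43 °C, against 1.65 FPKM at 23 °C, and rank 173 (214 bases) had 53.0 FPKM at 43 °C and 0.78 FPKM at 23 °C. Their log2 ratios were 5.004, 5.19 and 4.92, while the authors' deposited log2 values were 5.38, 5.78 and 5.99. At such low 23 °C values the closeness and order of the ratios depend on the added 1.

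Among the falls, comp35503_c0_seq1 (rank 90, 720 bases) had the lowest log2 ratio, -5.70, with 1.09 FPKM at 43 °C, against 108 FPKM at 23 °C. The transcript comp55196_c1_seq1 (rank 13, 542 bases) combined a high level with a deep fall: it had 31.6 FPKM at 43 °C, against 1220.4 FPKM at 23 °C, a log2 ratio of -5.23. It was the only one of the 14 transcripts at or above 1000 FPKM that dropped below 50 FPKM at 43 °C.

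Rank 115 (688 bases) had 2.91 FPKM at 43 °C and 89.2 FPKM at 23 °C. Ranks 88 (989 bases) and 100 (974 bases) share a locus name, and had 3.63 and 5.985 FPKM at 43 °C, against 110.1 and 98.95 FPKM at 23 °C. Ranks 34 (315 bases) and 43 (589 bases) share another, and had 19.6 and 15.9 FPKM at 43 °C, against 287 and 222 FPKM at 23 °C. Transcripts of 1 locus can share reads, so such pairs need not be independent observations. Rank 20 (1287 bases) had 58.75 FPKM at 43 °C, against 653 FPKM at 23 °C.

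The 19 transcripts that did not pass included some of the more abundant ones. They had log2 ratios from -0.20 to 0.33 and lengths from 289 to 1251 bases. Rank 22 (1084 bases), the most abundant of them, had 446 FPKM at 43 °C and 501 FPKM at 23 °C. Rank 24 (572 bases) had 401 FPKM at 43 °C and 373 FPKM at 23 °C. Among those that passed, the ratios nearest 0 were all negative. Rank 29 (964 bases) had 317 FPKM at 43 °C, against 362 FPKM at 23 °C, and rank 16 (1151 bases) had 706 FPKM at 43 °C, against 834 FPKM at 23 °C. The log2 ratios of -0.19 for rank 29 and -0.24 for rank 16 became 0.059 and 0.013 with equal totals.

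As a share of all fragments (FPKM multiplied by length), the 182 transcripts took 3.75% at 43 °C and 5.70% at 23 °C. As a share of summed FPKM, which counts molecules whatever their length, they took 6.22% at 43 °C and 9.94% at 23 °C. These shares are taken within each temperature, so the unequal totals do not enter them. Rank 1 alone held 0.518% of all fragments at 43 °C and 1.34% at 23 °C. Ranks 2 to 10 held 0.741% at 43 °C and 2.22% at 23 °C. The other 172 transcripts moved the other way, with 2.49% at 43 °C and 2.14% at 23 °C.

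By arithmetic, the lower share at 43 °C lay in the 10 most abundant. Their 23 °C values ranked them, so nothing is read from this split by rank. These 10 held 36.2% of the summed FPKM of the 182 at 43 °C and 65.0% at 23 °C. The 14 highest transcripts were needed to reach 50% of that sum at 43 °C, and the 5 highest at 23 °C. Among all transcripts without a match, the 182 held 47.8% of the fragments at 43 °C and 64.4% at 23 °C. The summed FPKM of the photosynthetic leaf markers given above also differed in this direction. The part of cell or tissue makeup in the result was not tested.

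**Figure D3:**
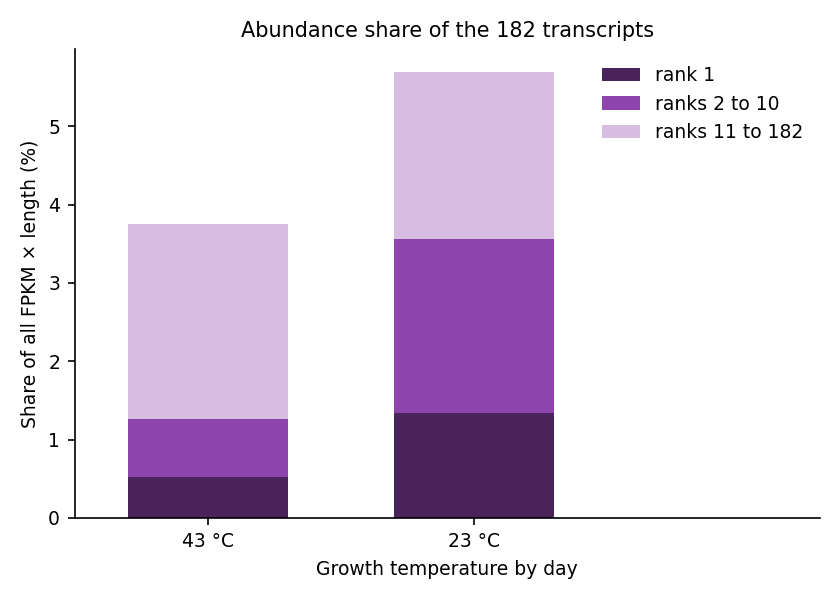
Share of all fragments (FPKM multiplied by length, in percent of the total over 46492 transcripts) held by the 182 transcripts at 43 °C (left bar) and 23 °C (right bar), split by abundance rank. The lower 2 segments, ranks 1 to 10, shrink to 1.26% at 43 °C, against 3.55% at 23 °C, while the top segment is of similar height in both bars.

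The 182 transcripts were short. Their lengths ran from 204 to 7715 bases, with a median of 853 and quartiles of 630 and 1123 bases. Transcripts without a match below 50 FPKM had a median of 942 bases and matched transcripts of at least 50 FPKM a median of 1520 bases. Over 500 and up to 1000 bases lay 93 of the 182 (51.1%), 24 were shorter and 65 longer. Length is part of FPKM, and a longer transcript offers more sequence to match, so length is not independent of the choice.

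The share without a match fell with length at both levels of abundance. Of transcripts up to 300 bases that reached 50 FPKM, 57.1% had no match (8 of 14), beside 82.1% of those under 50 FPKM. Over 500 and up to 1000 bases the shares were 22.7% (93 of 409) and 69.5%, and above 2000 bases 2.37% (14 of 591) and 11.5%. In each of the 5 length classes the share was lower among the abundant transcripts, a difference that was not tested. By abundance alone, 45.7% of transcripts with 1 to 5 FPKM had no match, 7.03% of those with 50 to 100 FPKM and 16.1% (14 of 87) of those with at least 1000 FPKM.

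**Figure D4:**
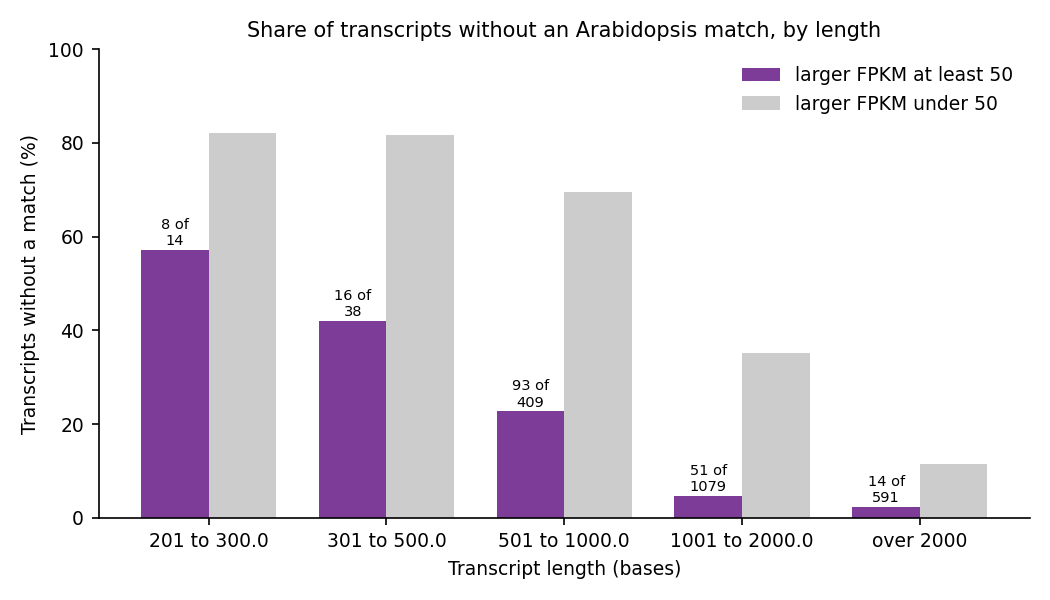
Percentage of transcripts without an Arabidopsis match in 5 length classes (bases), for transcripts whose larger FPKM was at least 50 (purple, with counts) and under 50 (grey). The purple bars drop from 57.1% in the shortest to 2.37% in the longest class and stay below the grey bars throughout.

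The 3 longest and 3 shortest transcripts all passed, as did 89.6% of the 182 and 38.5% of all transcripts. The longest, rank 72 with 7715 bases, rose to 134 FPKM at 43 °C, against 8.04 FPKM at 23 °C (log2 ratio 3.90). The next, rank 33 with 4072 bases, fell to 167 FPKM at 43 °C, against 287 FPKM at 23 °C, and rank 56 with 3711 bases rose to 176 FPKM at 43 °C, against 117 FPKM at 23 °C. The 3 shortest all rose: rank 142 (204 bases) had 65.9 FPKM at 43 °C, against 22.3 FPKM at 23 °C, and rank 132 (243 bases) had 70.8 FPKM at 43 °C, against 32.8 FPKM at 23 °C. The third, rank 173 with 214 bases, is given above. Of all 8 transcripts up to 300 bases, however, 3 rose, 3 fell and 2 did not pass. In the whole set the transcripts that rose had a median of 843 bases and those that fell 950.5 bases.

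At the edge of the choice, the transcripts just inside had 30.0, 50.4 and 19.9 FPKM at 43 °C, against 50.4, 40.6 and 51.2 FPKM at 23 °C. Those just outside had 48.7, 49.2 and 32.3 FPKM at 43 °C, against 4.36, 30.7 and 49.7 FPKM at 23 °C.

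Transcript names, which the choice did not use, allow a grouping of the 182. The directions compared within a group still come from the contrast that chose the transcripts, and such transcripts can share reads. For 171 of the 182 the name has 3 parts, a component, a subcomponent and a sequence number, and transcripts with the same first 2 parts are taken here as 1 assembly locus. The 171 transcripts fell into 159 loci, and 11 loci held several of them (23 transcripts). In 9 of these 11 loci the transcripts passed in the same direction, 3 loci higher and 6 lower. The other 2 loci held opposite directions. In the first, rank 166 (1123 bases) rose to 55.6 FPKM at 43 °C, against 5.685 FPKM at 23 °C, while rank 99 (1097 bases) fell to 73.0 FPKM at 43 °C, against 100.1 FPKM at 23 °C. In the second, rank 177 (384 bases) rose to 52.1 FPKM at 43 °C, against 27.6 FPKM at 23 °C, while rank 141 (1217 bases) fell to 54.9975 FPKM at 43 °C, against 66.5 FPKM at 23 °C. The log2 ratio of rank 141 was -0.27. It became -0.019 with equal totals and -0.33 after median centring over all transcripts. It thus stayed negative, but the size of this fall depends on the scaling. The log2 ratios within a locus differed by a median of 0.41 and by at most 3.53.

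Only 10 of the 182 (5.49%), in 9 loci, shared a locus with a transcript that did have an Arabidopsis match, and all 10 were shorter than the most abundant matched partner. The widest difference in log2 ratio from the main partner was that of rank 21 (787 bases), which had 592 FPKM at 43 °C and 418 FPKM at 23 °C. Its partner of 839 bases, matched to MT3, a metallothionein of a family of small cysteine-rich proteins that bind metals, had 266 FPKM at 43 °C and 6.97 FPKM at 23 °C. Both rose, but the log2 ratio was 0.50 for the transcript without a match and 5.07 for the partner. The E value of that match was 8.3e-10, near the weakest listed (1e-06).

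Ranks 35 (519 bases) and 149 (1884 bases) share a locus with transcripts matched to a mitochondrion-encoded protein. Rank 35 had 286 FPKM at 43 °C, against 8.07 FPKM at 23 °C, and rank 149 had 64.3 FPKM at 43 °C, against 1.17 FPKM at 23 °C. The most abundant partner, of 6004 bases and matched to an unknown protein (AT2G07706, E value 3.6e-07), had 1191 FPKM at 43 °C, against 73.2 FPKM at 23 °C. A further partner matched RPL5, a protein of the mitochondrial ribosome, with an E value of 1.1e-103, and had 31.0 FPKM at 43 °C, against 0.33 FPKM at 23 °C. The 4 matched partners of this locus rose with the 2 transcripts. Another of them, however, matched CIPK21, a protein kinase encoded in the nucleus, so the locus name joins sequences of different genes. Ranks 79 (776 bases) and 56 carry the same component name in other loci. Rank 79 had 123 FPKM at 43 °C and 5.20 FPKM at 23 °C.

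In 8 of the 10 the log2 ratio of the transcript without a match was farther from 0 than that of the main partner. The 10 had to reach 50 FPKM at either temperature and the partners did not, so nothing is read from this count. Both transcripts in the locus with RPL5 also have the same main partner, so the 8 are not independent observations. Rank 58 (343 bases) fell to 44.6 FPKM at 43 °C, against 162 FPKM at 23 °C, beside a partner matched to DSK2, a protein that carries ubiquitinated proteins to the proteasome, which fell to 46.5 FPKM at 43 °C, against 56.2 FPKM at 23 °C. Rank 97 (2813 bases) fell to 9.20 FPKM at 43 °C, against 104.0 FPKM at 23 °C, beside a partner of 2824 bases matched to a carbohydrate-binding X8 domain protein (AT5G35740), which fell to 163 FPKM at 43 °C, against 198 FPKM at 23 °C. The 2 transcripts without a match had log2 ratios of -1.84 and -3.36, or -1.59 and -3.13 with equal totals. The partners had -0.27 and -0.28, or -0.020 and -0.025 with equal totals.

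The direction was opposite to that of the main partner in 1 of the 10. Rank 133 (2731 bases) rose to 70.2 FPKM at 43 °C, against 17.8 FPKM at 23 °C, while the main partner, matched to ISA3, a debranching enzyme of starch breakdown, fell to 12.4 FPKM at 43 °C, against 35.6 FPKM at 23 °C. Of 11 transcripts matched to ISA3 in that locus, 8 fell, 2 rose like rank 133 and 1 did not pass. The 2 that rose were low, at 4.82 and 4.01 FPKM at 43 °C, against 1.35 and 0.205 FPKM at 23 °C. Most of the 8 that fell were lower still, the highest of these at 0.7175 FPKM at 43 °C, against 3.22 FPKM at 23 °C. The 17 matched transcripts of that locus had matches to 4 Arabidopsis loci, so the name does not show that both come from 1 gene. Rank 159 (829 bases) and a partner matched to a calcineurin-like phosphoesterase (AT3G03305) rose by similar log2 ratios, 0.58 and 0.49. Rank 163 (470 bases) rose to 56.9 FPKM at 43 °C, against 39.2 FPKM at 23 °C, beside a partner matched to ribosomal protein S4 that did not pass at 165 FPKM at 43 °C, against 146 FPKM at 23 °C.

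The remaining 2 of the 10 lay in loci with many matched transcripts. Rank 167 (292 bases) fell to 27.9 FPKM at 43 °C, against 55.4 FPKM at 23 °C, in a locus whose 16 matched transcripts covered 8 Arabidopsis loci. Its main partner, matched to the small GTPase ARLA1C, did not pass at 71.9 FPKM at 43 °C, against 74.6 FPKM at 23 °C. Of the 16, however, 10 rose, 0 fell and 6 did not pass, so every partner that passed moved opposite to rank 167. One of them, matched to HTA12, a histone H2A, rose to 61.8 FPKM at 43 °C, against 36.9 FPKM at 23 °C, and one matched to CMT3, a DNA methyltransferase, rose to 21.7 FPKM at 43 °C, against 5.32 FPKM at 23 °C. Rank 178 (573 bases) did not pass at 50.03 FPKM at 43 °C and 51.8 FPKM at 23 °C, while its main partner, matched to a phosphoinositide phosphatase (AT3G43220), fell to 10.8 FPKM at 43 °C, against 18.9 FPKM at 23 °C. Of the 10 matched transcripts in its locus 2 rose, 3 fell and 5 did not pass.

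**Figure D5:**
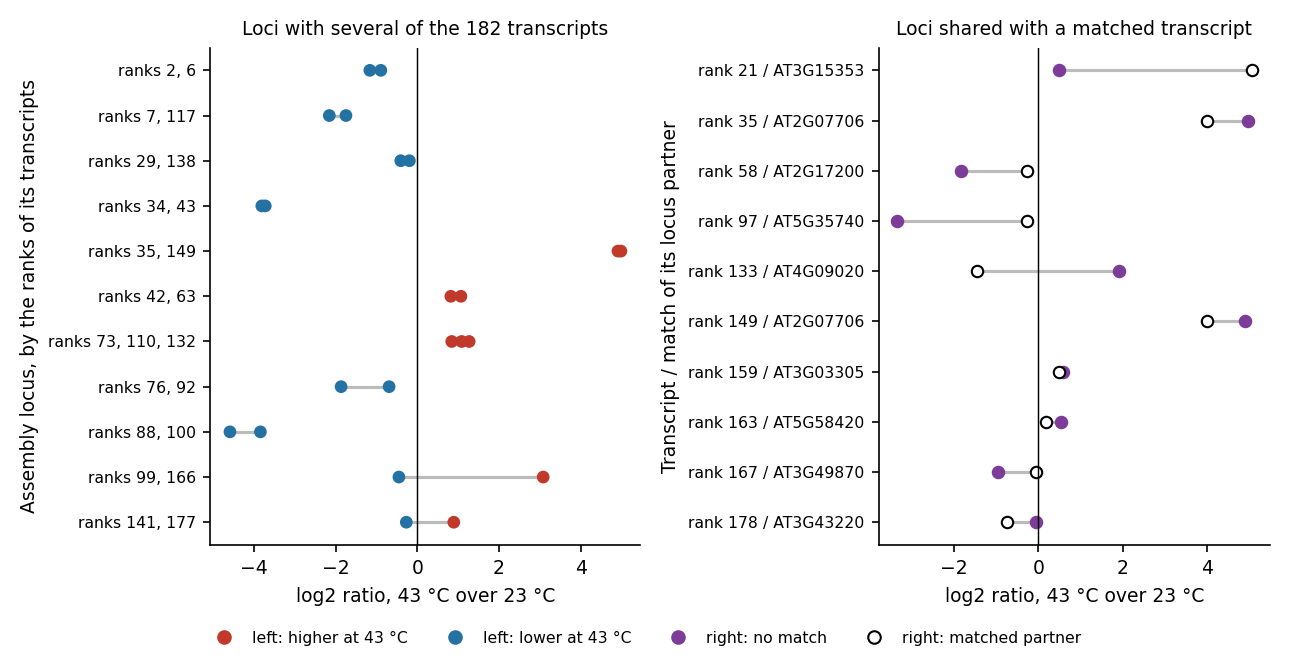
Log2 ratios (43 °C over 23 °C, pseudocount 1) within assembly loci. On the left, each row is 1 of the 11 loci with several of the 182 transcripts, and 2 rows span 0; on the right, each row is 1 of the 10 transcripts that share a locus with a matched transcript (purple) and its most abundant matched partner (open circle), with the widest gap for rank 21 beside MT3.

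A wider reading, by the component alone, tied 30 more of the 182 to a matched transcript. In 8 of these 30 the transcript and the most abundant matched partner passed in the same direction, and in 5 they passed in opposite directions. In 17 the transcript, the partner or both did not pass. Ranks 73, 110 and 132, all of 1 locus with the same partner, were among the opposite cases. Ranks 56 and 79, of 1 component with the same partner, were among those of the same direction. These counts are therefore not counts of independent observations. Rank 1 shared its component with a transcript matched to a TFIIS-type transcription elongation factor (AT5G09850), which had 34.7 FPKM at 43 °C and 81.5 FPKM at 23 °C, far below rank 1 at both temperatures. Rank 106 shared it with a transcript matched to ALDH2B7, an aldehyde dehydrogenase, which had 108 FPKM at both temperatures and did not pass. Rank 123 shared it with a transcript matched to SAG20, a gene named for senescence, which did not pass at 144 FPKM at 43 °C and 149 FPKM at 23 °C. These 3 examples were chosen after their values were seen. For 100 of the 171 transcripts the component held no transcript outside the 182, and the table thus links them to no annotated sequence.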

How the data were processed

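Leaf RNA of 8 libraries, 4 at each temperature, was sequenced after standard Illumina library preparation, per the labels' protocols; groups came from the sample titles. CASAVA 1.8.2 and Bowtie2 were used, per the submitters' processing notes, with no role given; for assembler, counting and test the sources used here give nothing. The deposited table holds FPKM per temperature, per the file headers, and as all values were multiples of 0.0025 (within 1e-06) they were taken as the authors' means. It also holds the authors' p-value, adjusted p and log2 fold change, and the best BLASTx match in TAIR10; the adjusted p equalled a Benjamini-Hochberg adjustment over all 46492 transcripts to within 3.2e-07.

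From these, transcripts with a blank match and a larger FPKM of at least 50 were selected, and log2 ratios (pseudocount 1), shares of FPKM multiplied by length, and loci from transcript names were computed with Python 3.11.15 and pandas 2.3.3; the steps were tested on simulated data. The design had foreseen a test over single libraries, which means do not allow, and depth per library is unknown. Transcripts described were, by rule, the 10 most abundant, the 10 highest and 10 lowest ratios, the 3 longest and shortest, the called ratios nearest 0, those at the edge of the threshold and those sharing a locus with a matched transcript; others were chosen after their values were seen. No table in the sources used here pairs transcript names with Atriplex genes, so at most 2 names in each direction are printed. The transcripts, marker lists and rules were chosen with earlier results of these data known. Alternatives were other FPKM thresholds, pseudocounts, scalings, match limits and p thresholds.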

Additional observations from a re-analysis of the deposited data

How the results depend on the processing

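The choice of transcripts depended on its limits. An FPKM threshold of 25 gave 379 transcripts and 100 gave 99, requiring the smaller FPKM to reach 50 gave 86, and counting matches with E values above 1e-30 as unmatched gave 397, against 182. A threshold of 25 gave 149 higher and 162 lower calls and 100 gave 38 and 51, against 75 and 88. Requiring a 2-fold change left 52 higher and 47 lower calls, so lower calls were then no longer the more frequent. The median log2 ratio of -0.15 became 0.10 with equal length-weighted totals, so its sign rests on the scaling. It was -0.15 with a pseudocount of 0.1, -0.14 with 5, -0.16 by the deposited log2 values, -0.21 after median centring, -0.053 and -0.24 at thresholds of 25 and 100, -0.20 when the smaller or the mean FPKM had to reach 50, and -0.11 with FPKM summed per locus. Without the transcript listed at 0 at 23 °C, left out after the data had been seen, it was -0.15. Without rank 1 the share of fragments was 3.23% at 43 °C and 4.36% at 23 °C, and unweighted by length the share of all 182 was 6.22% at 43 °C and 9.94% at 23 °C, so it was lower at 43 °C in each of these settings. The median length was 842 and 887 bases at thresholds of 25 and 100. Of 47 described transcripts that passed, 4 changed sign in 1 of the 5 other ratios, each time with equal totals: ranks 16, 29, 118 and 120, at 0.013, 0.059, 0.046 and 0.017. No paired analysis was possible because the table holds means per temperature, and leaving out single libraries was not run for the same reason. With depth unknown for each library and no SD given, the precision of a mean is not known. The authors' p-values concern the contrast between the temperatures and do not measure that precision.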
